A study of Homo sapiens with 2 samples.

Results

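The POU transcription factor genes other than OCT4 were followed from pluripotent human cells to neural precursor cells. The 9 genes were taken by symbol from both count tables, which held 24462 symbols, and each of the 9 stood on 1 row. They are POU2F1, POU2F2 and POU2F3 of class II, POU3F1, POU3F2, POU3F3 and POU3F4 of class III, POU4F1 of class IV and POU6F1 of class VI. RNA sequencing covered 1 library of undifferentiated H9 cells, an established human embryonic stem cell (hESC) line, and 1 library of neural precursor cells (NPC) that were derived from H9 in co-culture with MS5, a mouse stromal feeder line. Both groups therefore come from 1 unmodified line, the labels give no treatment beyond the feeder co-culture, and no second culture, clone or donor stands behind either value. With 1 library per group no test between conditions was possible, and the error given is counting error alone.

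POU factors bind DNA through a bipartite domain, a POU-specific part and a POU homeodomain joined by a flexible linker, and many of them recognise the octamer motif ATGCAAAT. Class II holds OCT1, a widely expressed factor, and relatives of narrower range. Class III holds the genes of OCT6 and of the brain factors BRN1, BRN2 and BRN4, which act in neural progenitors and young neurons and often bind beside SOX factors, as OCT4 does with SOX2 in pluripotent cells.

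The deposited values were read counts, 19686728 hESC reads and 24065750 NPC reads. Levels are given in CPM, counts relative to the library size, with sizes scaled by trimmed-mean-of-M-values (TMM) factors. A gene with at least 5 CPM in either library was called measured, which takes 86.9 reads in the hESC or 136 reads in the NPC library. Such a gene counts as higher or lower here where even the closer end of its 95% counting interval reaches a 2-fold difference. Over the 13535 measured genes the median log2 ratio was -0.09. Scaling by the library total in place of TMM raised every log2 ratio by 0.36, after which 27% of measured genes were higher and 13.2% lower. The labels were checked on OCT4 itself, POU5F1, which had 21886 hESC reads and 18 NPC reads. All 10 genes of a pluripotent cell list were lower in the NPC library (median log2 ratio -8.39). The Nodal co-receptor gene TDGF1, for example, had 12949 and 14 reads. A neural precursor list had 9 measured genes, of which 7 were higher (median log2 ratio 2.69). PAX6 had 18 and 2269 reads and SOX1 8 and 1376 reads. These 2 reached 5 CPM through NPC reads only and could not have been called lower, while the other 5 higher genes reached it in the hESC library.

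Of the 9 POU genes 6 were measured, and 4 of them were higher in the NPC library (POU2F2, POU3F2, POU3F3 and POU6F1) while 1 was lower (POU3F1). Over all 13535 measured genes 19.6% were called higher, 19.8% lower and 39.4% either way. POU2F1 was measured and not called, and POU2F3, POU3F4 and POU4F1 stayed below 5 CPM in both libraries. POU3F2, POU3F3 and POU6F1 reached 5 CPM through their NPC reads only, which leaves no way for them to be called lower, and POU3F1 reached it through its hESC reads only. The larger ratios were within class III, whose members went in opposite directions. Fewer cells that express a gene and less RNA of it per cell cannot be told apart in these bulk libraries.

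**Figure D1:**
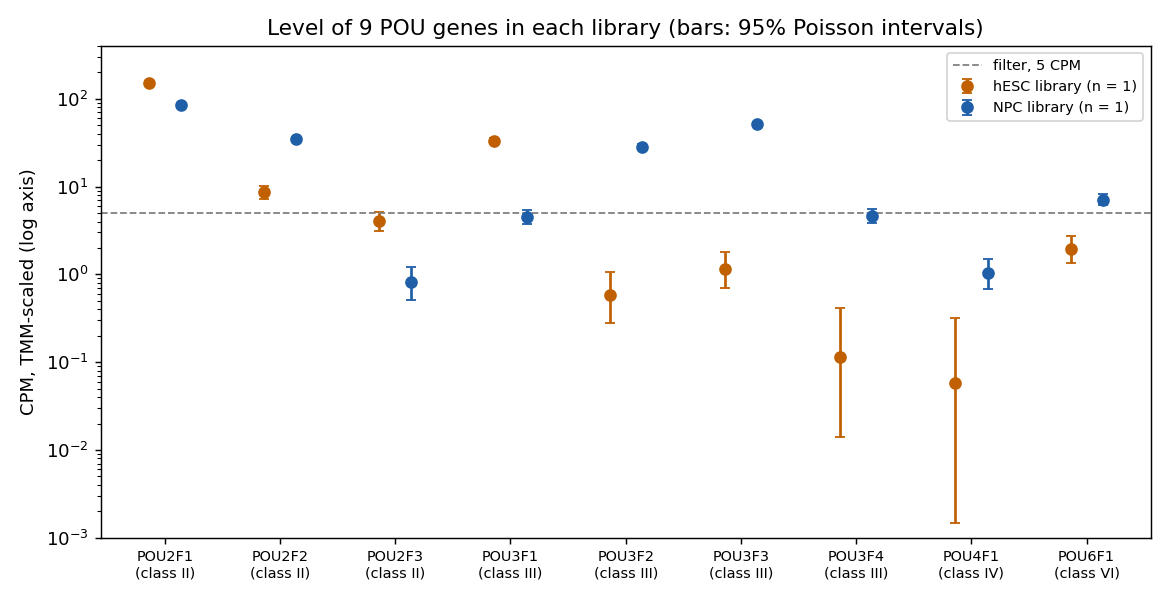
CPM of each POU gene (log axis) in the hESC library (orange) and the NPC library (blue), with exact 95% Poisson intervals of the read count and the filter of 5 CPM as a dashed line. POU2F1 was the gene with most CPM in both libraries, POU3F1 lay below the filter in the NPC library and POU3F2 and POU3F3 lay above it in that library alone.

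Class III genes had a shared gene structure. In GENCODE 29 each protein-coding transcript of POU3F1, POU3F2, POU3F3 and POU3F4 had 1 exon, whereas the longest coding transcript of POU4F1 had 2 exons, of POU6F1 11, of POU2F3 13, of POU2F2 14 and of POU2F1 16. Promoter sequences were taken from RefSeq (GRCh38.p14), which gave 11 entries for 8 of the 9 genes. The 4 class III promoters are shown because these genes share a motif there and yet did not move in 1 direction. The 250 bases before each start are printed on the gene's strand, with CCAAT boxes (CCAAT, or ATTGG on the other strand) in capitals. The motif was chosen after the sequences had been read.
POU3F1 (chr1:38046794-38047043, minus strand): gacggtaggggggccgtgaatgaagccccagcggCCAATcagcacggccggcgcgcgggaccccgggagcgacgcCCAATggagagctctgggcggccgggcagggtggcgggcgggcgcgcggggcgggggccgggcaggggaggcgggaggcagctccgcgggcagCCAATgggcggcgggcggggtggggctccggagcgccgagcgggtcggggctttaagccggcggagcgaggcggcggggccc
POU3F2 (chr6:98834324-98834573, plus strand): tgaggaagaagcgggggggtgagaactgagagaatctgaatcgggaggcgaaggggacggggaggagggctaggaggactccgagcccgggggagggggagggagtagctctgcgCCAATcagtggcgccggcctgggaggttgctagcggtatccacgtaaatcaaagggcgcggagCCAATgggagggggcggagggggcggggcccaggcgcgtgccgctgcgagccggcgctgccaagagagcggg
POU3F3 (chr2:104853865-104854114, plus strand): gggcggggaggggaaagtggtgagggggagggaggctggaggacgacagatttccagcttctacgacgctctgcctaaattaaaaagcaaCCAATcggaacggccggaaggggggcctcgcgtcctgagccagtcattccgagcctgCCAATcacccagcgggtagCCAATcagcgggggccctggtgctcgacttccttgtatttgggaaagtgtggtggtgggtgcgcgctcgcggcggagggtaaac
POU3F4 (chrX:83508040-83508289, plus strand): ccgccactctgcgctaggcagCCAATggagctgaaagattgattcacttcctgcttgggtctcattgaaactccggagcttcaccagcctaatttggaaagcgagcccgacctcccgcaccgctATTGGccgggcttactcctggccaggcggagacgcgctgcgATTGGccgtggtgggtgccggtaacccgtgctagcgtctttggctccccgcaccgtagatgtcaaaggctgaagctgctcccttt
All 4 class III promoters held CCAAT boxes, 2 in POU3F2 and 3 in each of the other genes, and none of the 7 other promoter entries of the family held any, of which a pair of POU2F1 entries nearly coincide. Over 35116 promoter windows of the same length, 32% held at least 1 CCAAT box, 9.53% at least 2 and 2.93% at least 3. GC content was 80.8% in POU3F1, 69.2% in POU3F2, 62% in POU3F3 and 60% in POU3F4, with a median of 58% over all windows. The octamer ATGCAAAT, searched on both strands, was absent from these 4 windows.

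POU3F1 encodes OCT6, a factor of the primed epiblast and of Schwann cells before myelination. It had 580 hESC reads and 122 NPC reads, or 33.4 CPM (95% interval 30.7 to 36.2) and 4.48 CPM (3.72 to 5.35). This was the class III gene with most reads in the hESC library, and it was 7.42-fold lower (6.11 to 9.12) and just under the filter in the NPC library. Markers of pluripotent cells were lower in the same library, and those of Schwann cells and oligodendrocytes went both ways. That list had 6 measured genes, 2 higher and 3 lower (median log2 ratio -1.78), and a summed level of 159 CPM (hESC) and 104 CPM (NPC). S100B, which encodes a calcium-binding protein, was 45.8-fold (28.1 to 87.0) and the myelin gene PMP22 5.65-fold (4.08 to 8.22) higher. Both reached 5 CPM through NPC reads only and could not have been called lower. The myelin gene MBP was 14-fold lower and the neurotrophin receptor gene NGFR 12.6-fold lower. SOX10, the defining factor of both glial lineages, had 37 and 21 reads, and the part of glial or pluripotent cells in the POU3F1 value was not tested.

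POU3F2 encodes BRN2, a factor of neural progenitors and of migrating and upper-layer cortical neurons. It had 10 hESC reads and 773 NPC reads, which is 0.575 CPM (0.276 to 1.06) and 28.4 CPM (26.4 to 30.5). The ratio was 47.1-fold (26.7 to 103), and the intervals of the levels lie far apart.

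POU3F3 encodes BRN1, the close relative of BRN2 that acts beside it in the developing cortex. It had 20 hESC reads and 1400 NPC reads, or 1.15 CPM (0.703 to 1.78) and 51.5 CPM (48.8 to 54.2). It was 43.7-fold higher (28.9 to 73.5), close to the ratio of POU3F2. Both long non-coding RNA genes listed on the other strand beside POU3F3 had reads in the NPC library alone. LINC01158, named PANTR1 in GENCODE, had 0 and 222 reads and was at least 47.3-fold higher, against a floor of 3 reads in the hESC library. LINC01159 had 0 and 32 reads, below the filter. The strand setting of the counting is not given in the sources used here, so reads of overlapping genes on opposite strands cannot be told apart.

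POU3F4 encodes BRN4, a factor of the neural tube, the ventral forebrain and the inner ear. It had 2 hESC reads and 126 NPC reads, 0.115 CPM (0.0139 to 0.416) and 4.63 CPM (3.86 to 5.51), so it missed the filter in both. Its ratio was 32.3 with a wide interval of 10.9 to 336. With the library total as scale it passed the filter and was called higher.

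**Figure D2:**
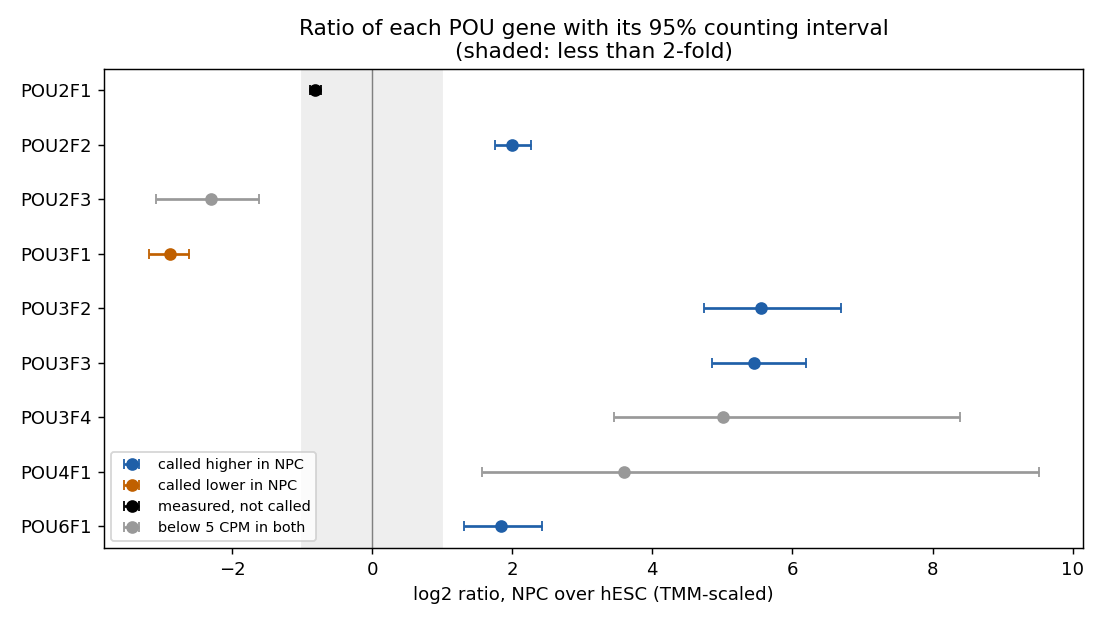
Log2 ratio of each POU gene, NPC over hESC, with its exact 95% counting interval. Blue genes were called higher, orange lower, black was measured and not called and grey stayed below 5 CPM in both libraries, and the shaded band marks less than 2-fold. The intervals of POU3F2, POU3F3 and POU3F4 overlap near a log2 ratio of 5, while POU3F1 lies at -2.89.

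Pairs of genes were compared within each class by the odds ratio of their reads over the 2 libraries, which does not depend on how the libraries are scaled. There were 9 such pairs, 3 in class II and 6 in class III. Relative to POU3F1, reads shifted towards the NPC library by a factor of 365 for POU3F2 (190 to 787), 331 for POU3F3 (203 to 566) and 297 for POU3F4 (78.7 to 2514). Among POU3F2, POU3F3 and POU3F4 no difference was detectable at this depth. The odds ratio of POU3F2 over POU3F3 was 1.10 (0.49 to 2.66), of POU3F2 over POU3F4 1.23 (0.129 to 5.85) and of POU3F3 over POU3F4 1.11 (0.125 to 4.66). These intervals leave room for differences of more than 2-fold either way. Without POU3F1 the class III genes summed to 32 hESC reads and 2299 NPC reads, 1.84 and 84.5 CPM.

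**Figure D3:**
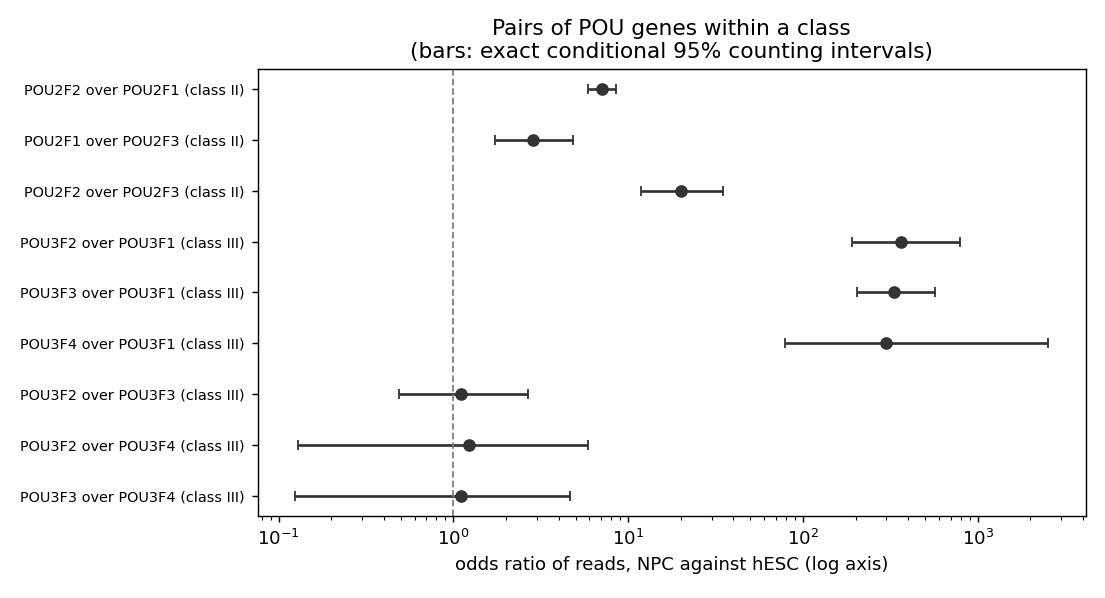
Odds ratio of reads for each pair of POU genes within class II and class III, NPC against hESC (log axis), with exact conditional 95% counting intervals and a dashed line at 1. The 3 pairs with POU3F1 lie near 300 or above, the 3 pairs among the other class III genes hold 1, and the class II pairs lie between 2.84 and 19.9.

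Class II held the most abundant gene by reads. POU2F1 encodes OCT1, which acts at small nuclear RNA and histone genes and in many cell types. It had 2601 hESC reads and 2321 NPC reads, or 150 CPM (144 to 155) and 85.3 CPM (81.9 to 88.9). The level was 1.75-fold lower (1.66 to 1.86) in the NPC library, beyond counting error and short of the 2-fold rule. It was called lower when the trend of the ratio with transcript length was removed, with a log2 ratio of -1.31 in place of -0.81. Its longest coding transcript has 14038 bases, the longest of the family.

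One promoter entry of POU2F1, that of an internal start, held the only octamer among the 11 entries of the family. The stretch is printed because it shows the family's own binding motif at a family gene, with the octamer in capitals in its reverse orientation, 179 bases before the start.
POU2F1, internal start (chr1:167328871-167328918, plus strand, GRCh38.p14): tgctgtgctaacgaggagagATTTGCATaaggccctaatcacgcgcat
An octamer was present in 1.63% of the 35116 windows. The counts per gene do not separate transcripts from this start and from the upstream one.

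POU2F2 encodes OCT2, a factor best known from B lymphocytes that is also made in the nervous system. It had 149 hESC reads and 937 NPC reads, or 8.57 CPM (7.25 to 10.1) and 34.4 CPM (32.3 to 36.7). POU2F2 was 4.01-fold higher (3.38 to 4.81) and reached the filter in both libraries. The defining B lymphocyte markers MS4A1 and CD79A were near 0, with 2 and 1 reads for MS4A1 and 7 and 1 reads for CD79A. Of that list 2 of 12 genes were measured. CD37, a leukocyte tetraspanin gene, was 8.62-fold higher (5.18 to 16.6), and the transcription factor gene SPIB was 11.5-fold lower (8.53 to 16.2). CD37 reached 5 CPM through NPC reads only and SPIB through hESC reads only. The summed level of the list was 28.5 CPM (hESC) and 11.1 CPM (NPC), with a median log2 ratio of -0.21. LOC100505622, a non-coding RNA that overlaps POU2F2 on the other strand, had 0 and 120 reads, below the filter at 4.41 CPM in the NPC library and at least 25.6-fold above a floor of 3 hESC reads. Its part in the POU2F2 count was not tested.

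POU2F3, the gene of a factor that specifies tuft cells and acts in keratinocytes, had 70 hESC reads and 22 NPC reads. These are 4.03 CPM (3.14 to 5.09) and 0.809 CPM (0.507 to 1.22), below the filter in both, with a ratio of 4.90 (3.05 to 8.45) towards the hESC library. Defining tuft cell genes were near 0 in both, with 1 and 10 reads for the channel gene TRPM5 and 3 and 4 for GFI1B. In the tuft cell list 3 of 13 genes were measured, 2 higher and 1 lower (median log2 ratio 1.80), and its sum was 93.1 CPM (hESC) and 291 CPM (NPC). Most of that sum was DCLK1, a microtubule-associated kinase gene of neurons and tuft cells, 3.49-fold higher (3.30 to 3.70). AVIL, which encodes an actin-binding protein, was 13.5-fold higher (6.84 to 36.5), and PTGS1, a cyclooxygenase gene, was 15.4-fold lower (8.65 to 33.1). AVIL reached 5 CPM through NPC reads only and PTGS1 through hESC reads only. Of the keratinocyte list 3 of 10 were measured and 1 was lower, SFN, the gene of 14-3-3 sigma, with 99 and 43 reads (median log2 ratio -0.74). SFN was not called with the library total, a filter at 20 CPM, a 4-fold bound or the length trend removed. The odds ratios within class II were 7.05 for POU2F2 over POU2F1 (5.87 to 8.51), 2.84 for POU2F1 over POU2F3 (1.73 to 4.83) and 19.9 for POU2F2 over POU2F3 (11.8 to 34.9). The class II genes differed from each other in their ratios by more than counting error.

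At 5 CPM and with TMM scaling none of the measured partners of OCT1 was called. In a list of coactivators of class II POU factors and small nuclear RNA gene factors 9 of 12 genes were measured (median log2 ratio -0.72). HCFC1, the gene of the host cell factor that binds OCT1, had 325 CPM (hESC) and 198 CPM (NPC), a ratio of 1.64 (1.58 to 1.71). With the length trend removed HCFC1 was called lower, at a log2 ratio of -1.12. Genes of the SNAPc complex, which works with OCT1 at small nuclear RNA promoters, lay between 1.94-fold lower (SNAPC5) and 1.43-fold higher (SNAPC3). POU2AF1, the gene of the lymphoid coactivator OBF1, had 8 and 107 reads, or 0.46 and 3.93 CPM, below the filter, and was called higher with a filter of 1 CPM or none.

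POU4F1, the gene of BRN3A, a factor of sensory neurons, habenula and retina, was near the detection limit. It had 1 hESC read and 28 NPC reads, 0.0575 CPM (0.00146 to 0.321) and 1.03 CPM (0.684 to 1.49), with a ratio of 12.1 (2.96 to 732). The antisense RNA gene RNF219-AS1, which overlaps it, had 162 and 302 reads, and with no stated strand setting some reads of either gene may belong to the other. A sensory neuron list had 8 measured genes, 6 of them higher and 1 lower (median log2 ratio 3.36), while 11 were below the filter. All 6 higher genes reached 5 CPM through NPC reads only and could not have been called lower. NEUROG1, a proneural factor gene, had 1 and 479 reads and the neurotrophin receptor gene NTRK2 8 and 1149 reads. The receptor gene RET was 3.57-fold lower (2.64 to 4.91). The sensory channel gene SCN9A had 132 and 489 reads, 7.59 and 18.0 CPM, and was not called at a ratio of 2.36 (1.95 to 2.89). It was called higher with the library total or the point ratio. Among the genes below the filter, SCN10A and DRGX had 0 reads in both libraries, TLX3 had 0 and 2, and PRPH, the gene of the neurofilament protein peripherin, had 35 and 6.

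POU6F1 encodes BRN5, a factor of the nervous system with a role in neuronal differentiation. It had 34 hESC reads and 192 NPC reads, or 1.96 CPM (1.35 to 2.73) and 7.06 CPM (6.10 to 8.13). It was 3.57-fold higher (2.50 to 5.36), near the filter in the NPC library, and was not measured with a filter at 20 CPM.

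The order of the levels was read per kilobase of the longest protein-coding transcript, since longer transcripts give more reads. In the hESC library POU3F1 stood first with 15.3 CPM per kb (14.1 to 16.6), followed by POU2F1 with 10.7 CPM per kb (10.3 to 11.1). POU2F3 (1.39 CPM per kb) and POU2F2 (1.24 CPM per kb) came next with overlapping intervals, then POU6F1 (0.661 CPM per kb) and POU3F3 (0.376 CPM per kb), which overlapped too. POU3F2 (0.118 CPM per kb), POU3F4 (0.0298 CPM per kb) and POU4F1 (0.0127 CPM per kb) were last, and the neighbours among them overlapped. In the NPC library POU3F3 stood first with 16.8 CPM per kb (15.9 to 17.7). POU2F1 (6.08 CPM per kb, 5.83 to 6.33) and POU3F2 (5.82 CPM per kb, 5.42 to 6.25) overlapped, and POU2F2 followed with 4.99 CPM per kb (4.68 to 5.32). POU6F1 (2.38 CPM per kb) and POU3F1 (2.05 CPM per kb) overlapped as well, and below them were POU3F4 (1.20 CPM per kb), POU2F3 (0.279 CPM per kb) and POU4F1 (0.226 CPM per kb). POU2F2 has coding transcripts of very different length. With the median coding transcript, 1338 bases for this gene, its NPC level was 25.7 CPM per kb and the highest of the family. Its hESC level was then 6.41 CPM per kb, above the 2.06 CPM per kb of POU2F3.

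**Figure D4:**
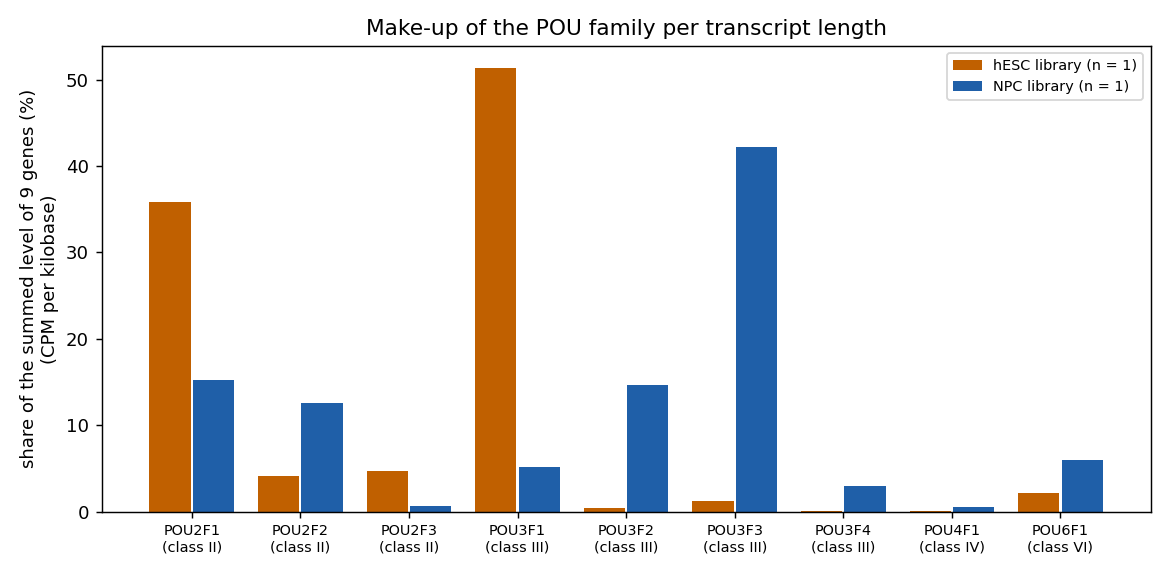
Share of each POU gene in the summed CPM per kb of the 9 genes, in the hESC library (orange) and the NPC library (blue). POU3F1 held 51.3% of the hESC sum and 5.16% of the NPC sum, whereas POU3F3 went from 1.26% to 42.2%. Lengths are of the longest coding transcript, and with the median one POU2F2 led the NPC library with 42.1%, POU3F3 held 27.5% and POU3F1 42.6% (hESC) and 3.36% (NPC).

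By reads, the family changed its make-up more than its sum. All 9 genes together had 3467 hESC reads and 5921 NPC reads, or 199 and 218 CPM, a ratio of 1.09 (1.05 to 1.14) that became 1.40 (1.34 to 1.46) with the library total. Class III took 17.7% of these reads in the hESC library (exact binomial 95% interval 16.4% to 19.0%) and 40.9% in the NPC library (39.6% to 42.2%). Class II took 81.3% (80.0% to 82.6%) and 55.4% (54.1% to 56.7%). Summed per kilobase of the longest coding transcript, the 9 genes had 29.8 (hESC) and 39.8 CPM per kb (NPC). With the median coding transcript the sums were 35.9 and 61.1 CPM per kb, so the change in the sum depends on the measure. Per kilobase of the longest coding transcript class III held 53.1% and 65.0% of the summed level, but with the median coding transcript it held 44.0% and 42.3%, so the direction of this share depends on the length used. Its hESC part was nearly all POU3F1 with either length. Together POU3F2, POU3F3 and POU3F4 held 1.76% (hESC) and 59.8% (NPC) with the longest transcript, and 1.46% and 39.0% with the median one. With OCT4 added to make 10 genes, OCT4 took 86.3% of the hESC reads (85.9% to 86.7%) and 0.303% of the NPC reads (0.18% to 0.479%). The copies of OCT4 share sequence with it, so its reads could have been assigned to them or theirs to it. POU5F1B had 1050 and 2 reads, POU5F1P3 556 and 4, and POU5F1P4 256 and 34.

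SOX factors, which bind beside POU factors, were in part higher. Of 6 measured genes in a SOX partner list 3 were higher and none was lower (median log2 ratio 1.68), and 2 of the 3 reached 5 CPM through NPC reads only. SOX1 was 103-fold higher (55.6 to 255) and SOX21 11.3-fold higher (7.98 to 17.2). SOX2, the partner of OCT4 and of class III factors, had 3700 and 7698 reads, 213 and 283 CPM, and did not pass the rule.

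Neural genes linked to class III factors were all measured. Of these 10 genes 7 were higher and the other 3 were not called (median log2 ratio 4.42). Through NPC reads only 5 of the 7 reached 5 CPM. The zinc finger gene ZIC1 had 4 and 10985 reads. MYT1L, the gene of a zinc finger factor used together with BRN2 to turn fibroblasts into neurons, had 6 and 180 reads. DLL1, a Notch ligand gene with an enhancer bound by BRN2, had 18 and 752 reads. NES, whose neural enhancer binds class III and SOX factors, had 355 and 366 CPM and was not called.

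In a neuroendocrine hypothalamus list, a region whose neurons need BRN2, all 7 measured genes were higher (median log2 ratio 6.10), and 6 of these 7 reached 5 CPM through NPC reads only. NKX2-1, a ventral forebrain factor gene, had 1 and 2387 reads and the thyrotropin-releasing hormone gene TRH 8 and 1729 reads. CRH, the corticotropin-releasing hormone gene and a target of BRN2, had 2 and 145 reads. AVP and OXT, the hormone genes of the magnocellular neurons that BRN2 specifies, had 4 and 0 reads and 7 and 2 reads. SIM1, the factor upstream of BRN2 in those neurons, had 6 and 67 reads, below the filter.

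Among cortical layer factors 10 genes were measured, 6 higher and 4 not called (median log2 ratio 2.18), and 5 of the 6 reached 5 CPM through NPC reads only. FEZF2, a deep-layer factor gene, had 12 and 4664 reads and LHX2, a cortical selector gene, 4 and 1943 reads. CUX2, a gene of upper layers where BRN1 and BRN2 act, was 3.76-fold higher (3.15 to 4.54), with 140 and 826 reads. A neuron list had 13 measured genes, 7 of them higher and 1 lower (median log2 ratio 2.05). Through NPC reads only 3 of these 7 reached 5 CPM, so they could not have been called lower. MAP2, a dendritic protein gene, was 62.5-fold higher and the RNA-binding protein gene ELAVL4 63.1-fold higher, while RBFOX3, the gene of NeuN, was 10.4-fold lower. Stroma and fibroblast genes moved in the same library, 8 of 11 higher and 2 lower (median log2 ratio 2.23), with a sum of 949 and 1849 CPM. Of the 8 higher genes 5, COL3A1 and DCN among them, reached 5 CPM through NPC reads only and could not have been called lower. COL3A1, a fibrillar collagen gene, had 11 and 7837 reads and the proteoglycan gene DCN 4 and 303 reads. In the same list THY1 was 11.3-fold and TAGLN 5.80-fold lower. Their part in the POU values was not tested.

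The genes most like each measured POU gene were looked up among 80 measured neural transcription factor genes, by the distance of log2(CPM + 0.5) over the 2 libraries. Nearest to POU3F2 was MEIS1, a homeobox gene, with 11 and 812 reads at a distance of 0.10. Nearest to POU3F3 was HEY1, a Notch target, with 20 and 1204 reads (distance 0.22), then SOX6 and SOX5. Nearest to POU2F2 was CUX2 (distance 0.20), and nearest to POU2F1 was PBX2 with 1821 and 2653 reads (distance 0.55). POU6F1 had no close match, the nearest being MSX1 at 0.98. For POU3F1 the nearest was IRX2, an Iroquois homeobox gene, with 774 and 180 reads (distance 0.66), and the next, HEY2, was at 1.68. Of those 80 genes 57 were called higher and 3 lower, IRX2, SOX13 and HEYL. Through NPC reads only 49 of the 80 reached 5 CPM, so they could not have been called lower, and all 49 were called higher. Of the other 31 genes 8 were higher and 3 lower. With 2 points this likeness says only that the levels were close.

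**Figure D5:**
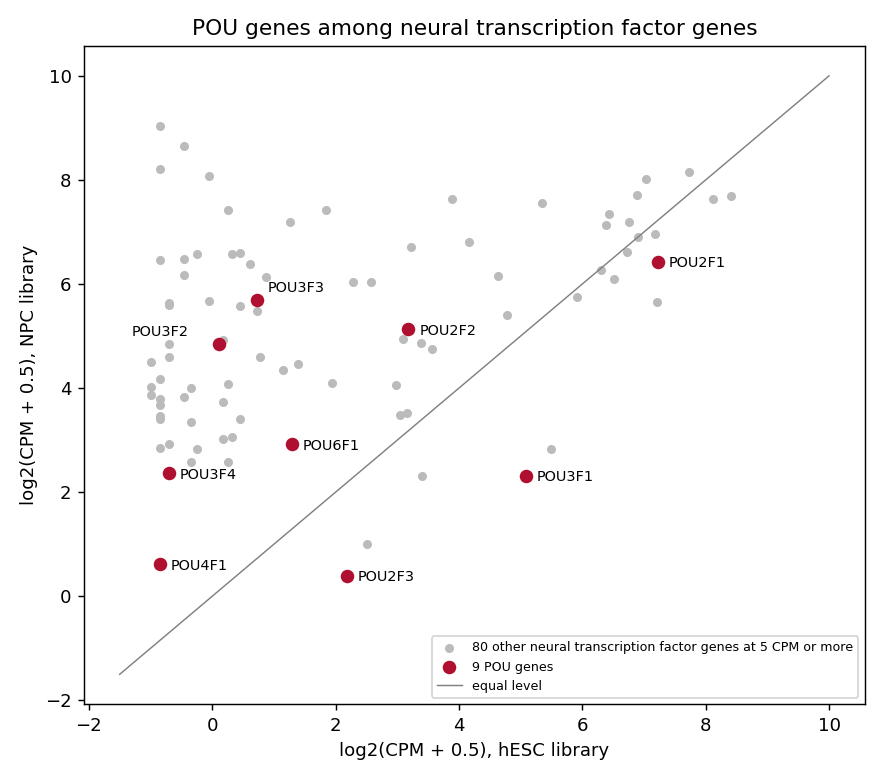
Level of the 9 POU genes (red) and of 80 other measured neural transcription factor genes (grey), as log2(CPM + 0.5) in the hESC library (x axis) and the NPC library (y axis), with the line of equal level. POU3F1 lies below the line with few other genes, and POU3F2 and POU3F3 lie among the many genes high in the NPC library alone.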

How the data were processed

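The authors deposited raw read counts per gene symbol, 1 file for each library, whole numbers with no normalization. Per the labels' protocols, 1.3 µg of total RNA, taken up in Trizol, went into each SMARTER library. Per the submitters' processing notes TopHat, edgeR and hg19 were used, and their roles and order are not recorded there. Not given in the sources used here: the counter, its strand setting, the annotation and what was done with multiply mapped reads. The tables had 25737 rows, and for the 286 symbols that occurred more than once only the row with the highest read sum was used (24462 symbols, with 0.0878% of hESC and 0.107% of NPC reads set aside).

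TMM factors came from edgeR 4.0.16 (R 4.3.3), 0.884 for hESC and 1.13 for NPC. Ratios had 0.5 added to each count and exact Clopper-Pearson 95% intervals on the NPC share of a gene's reads. Intervals cover counting error only, and reads that carry no molecular identifier may be copies of 1 molecule. Library batch cannot be told apart from group. Lengths and exons are from GENCODE 29 (GRCh38), used by symbol and not by coordinate. Promoter sequences are from RefSeq. Other work used Python 3.11.15, scipy 1.17.1, pandas 2.3.3, numpy 2.4.6, statsmodels 0.14.6 and matplotlib 3.10.9.

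On simulated counts for this comparison without replicate variation, over 24462 genes, 67 of 67 genes changed 3-fold, 66 of 66 changed 8-fold, 0 of 67 changed 1.5-fold and 0 of 12670 unchanged measured genes were called.

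The 9 genes, the lists and the tests were chosen with earlier results of these data known. Named were the POU genes, at most 2 higher and 2 lower genes per list by the near interval bound and, for lists with no call, the most abundant member. Other named genes, such as CUX2, CRH, AVP, OXT, SIM1, DLL1, MYT1L, NES, SOX2, POU2AF1, SNAPC3, SNAPC5, the defining cell type markers and the neighbouring RNA genes, were chosen after their values were seen. Some genes that the rule names are not reported here. Alternatives were the library total, upper-quartile and DESeq2 1.42.0 factors, filters at 1 and 20 CPM or none, a 4-fold bound, the point ratio, log2(CPM + 1), removal of 142 mitochondrial and ribosomal protein genes, summed rows and another transcript length. Added after seeing the data were removal of the length trend (lowess, fraction 0.5, lengths for 94.8% of measured genes) and the longest transcript of any type.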

Additional observations from a re-analysis of the deposited data

How the results depend on the processing

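All 9 POU genes kept the direction of their log2 ratio under the library total, DESeq2 and upper-quartile factors, removal of mitochondrial and ribosomal protein genes, summed rows, log2(CPM + 1) and removal of the length trend. POU2F1 ranged from -1.31 to -0.45, POU3F1 from -2.92 to -2.53, POU3F2 from 4.22 to 5.91 and POU3F3 from 4.61 to 5.80. The count of 4 higher and 1 lower gene was the same in 5 of 11 settings. With a filter at 1 CPM or none there were 6 higher and 2 lower genes, POU3F4 and POU4F1 joining the higher and POU2F3 the lower ones. Over all genes measured in these settings, 20.4% were higher and 18.9% lower at 1 CPM, and 16.6% and 15.3% without a filter. With a filter at 20 CPM 3 were higher and 1 lower, beside 18% and 21.6% of all measured genes. The library total gave 5 higher and 1 lower, beside 27% and 13.2% of all measured genes. A 4-fold bound left 2 higher, POU3F2 and POU3F3, and 1 lower, beside 9.13% and 7.26% of all measured genes. With the length trend removed 4 were higher and 2 lower, POU3F1 and POU2F1, beside 18.2% and 20.1% of all measured genes. Of 352 list counts 33 moved by over 1.5 times. The class II sum, 1.35-fold lower (1.28 to 1.42), was 1.05-fold lower (0.999 to 1.11) with the library total. Depth limits POU3F4 and POU4F1, with 2 and 1 hESC reads, and 0 reads would allow a level of 0.173 CPM (hESC) or 0.110 CPM (NPC). No paired analysis was possible because each group has 1 library.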

Other observations

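A further 5 genes and pseudogenes of the POU family were below the filter in both libraries. POU4F2, the gene of the retinal ganglion cell factor BRN3B, had 4 and 17 reads, and POU4F3, the gene of the hair cell factor BRN3C, had 2 and 0 reads. POU5F2 had 5 and 24 reads, the pseudogene POU5F1P5 32 and 35 reads, and POU1F1, the pituitary factor gene, had 0 reads in both libraries.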
